A study of Mus musculus with 12 samples.

Results

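DNA replication genes were taken as 39 genes that carry out the copying of DNA in S phase, found by symbol among the 55414 genes of the count table of the venous limb of a mouse arteriovenous fistula (AVF). Each of the 39 symbols matched 1 Ensembl identifier. They were 12 genes of the helicase, 5 of origin licensing, 6 of the polymerases and primase, 6 of the sliding clamp and its loader, 2 of Okazaki fragment joining, 5 of nucleotide supply and 3 of chromatin copying. Tissue was the inferior vena cava (IVC) of wild-type C57BL/6J mice, aged 10 weeks, 7 days after surgery. In the AVF group (n = 6) a needle puncture joined the infrarenal aorta to the IVC. The sham group (n = 6) was operated on without the puncture, and all mice had isoflurane and buprenorphine. Each group held 3 female and 3 male mice, and each mouse gave 1 library of poly(A) RNA. The study divided its AVF mice, from the expression in these libraries and not from the sample labels, into a normal group (nAVF, samples #04, #06, #07 and #11) and an outlier group (OUT, #05 and #09). Tests that use that division do not account for it. The tissue was a whole vein segment, so fewer cells of a type and less RNA per cell cannot be told apart.

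Before S phase, the origin recognition complex, Cdc6 and Cdt1 load the Mcm2 to Mcm7 ring onto DNA, and geminin (Gmnn) blocks Cdt1 once S phase has begun. Cdc45 and the GINS proteins turn the ring into the active CMG helicase, primase starts new strands, polymerases extend them, and the Pcna ring holds the polymerases on DNA. Many of these genes are transcribed under E2F factors as cells leave quiescence, the state of most cells of a healthy adult vein.

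Libraries held 15177881 to 22717423 counts, and ribosomal RNA took 46.0% of sample #07 against 2.39% to 12.6% of the others. Levels are in normalized CPM, the CPM of a gene (its counts scaled to equal library totals) after correction of library size by TMM, edgeR's trimmed mean method. The floor of detection, 3 counts of a gene in a library, was 0.127 to 0.323 normalized CPM, and this floor covers counting error only. Markers of endothelium and of smooth muscle were present in every library, with summed levels of at least 1711 and 2504 normalized CPM.

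To see what the members share besides their task, the promoter windows of RefSeq (GRCm38.p6, 250 bases before to 50 after the start of a gene) were searched for 3 motifs on both strands. These were an E2F motif (TTTGGCGC, TTTCCCGC, TTTCGCGC or TTTGCCGC), the CCAAT box (CCAAT) and the CHR element of cell cycle genes (TTTGAA). Windows were found for 31 of the 39 members. An E2F motif stood in 15 of the 31 (48.4%), against 2.60% of the 27025 genes of the promoter table and 4.26% of those tested in AVF against sham. It stood in 8 of the 16 members with a window that were called higher in the AVF below, and in 6 of the 14 tested and not called. A CCAAT box stood in 19 of the 31 (61.3%), against 41.1% of all genes and 42.6% of those tested. A CHR element stood in 4 (12.9%), against 20.2% of all genes and 14.9% of those tested. In the windows of 20 listed mitosis genes, the shares were 10.0% for E2F, 85.0% for CCAAT and 75.0% for CHR. The stretches below run from 170 bases before to 5 after the start and show members with and without the E2F motif, with motifs in capitals. Pclaf, Mcm5, Mcm6 and Cdc6 hold an E2F motif, and Rrm2 and Pcna hold a CCAAT box without one. In Mcm6, and in Mcm5, a pair of overlapping E2F motifs on opposite strands forms the longest run of capitals.
Pclaf, chr9:65890153-65890327, forward strand: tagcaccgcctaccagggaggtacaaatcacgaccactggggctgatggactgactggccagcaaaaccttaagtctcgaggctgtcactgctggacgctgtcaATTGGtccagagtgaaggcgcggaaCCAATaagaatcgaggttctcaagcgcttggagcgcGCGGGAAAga
Mcm5, chr8:75109339-75109513, forward strand: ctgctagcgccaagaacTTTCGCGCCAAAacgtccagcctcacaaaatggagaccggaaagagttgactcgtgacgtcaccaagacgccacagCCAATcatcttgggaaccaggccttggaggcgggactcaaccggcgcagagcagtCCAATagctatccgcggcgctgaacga
Mcm6, chr1:128359701-128359875, reverse strand: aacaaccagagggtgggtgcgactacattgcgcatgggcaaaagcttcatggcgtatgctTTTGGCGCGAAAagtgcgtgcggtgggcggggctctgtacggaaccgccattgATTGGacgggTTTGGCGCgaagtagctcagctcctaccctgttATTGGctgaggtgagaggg
Cdc6, chr11:98907981-98908155, forward strand: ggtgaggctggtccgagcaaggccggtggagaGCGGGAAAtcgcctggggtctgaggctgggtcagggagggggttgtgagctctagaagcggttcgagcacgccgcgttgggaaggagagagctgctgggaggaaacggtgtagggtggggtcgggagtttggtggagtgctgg
Rrm2, chr12:24708084-24708258, forward strand: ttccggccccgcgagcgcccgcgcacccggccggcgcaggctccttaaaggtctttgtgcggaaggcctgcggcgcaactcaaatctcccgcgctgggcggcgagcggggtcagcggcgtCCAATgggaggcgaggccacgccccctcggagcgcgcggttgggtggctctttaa
Pcna, chr2:132253176-132253350, reverse strand: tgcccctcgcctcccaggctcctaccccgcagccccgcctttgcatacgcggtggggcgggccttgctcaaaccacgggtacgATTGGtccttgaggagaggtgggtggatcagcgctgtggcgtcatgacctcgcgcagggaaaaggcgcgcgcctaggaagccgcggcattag
A motif is a match of letters only, and no binding was measured here.

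To determine whether replication genes differed between the AVF and the sham IVC, the groups were compared by edgeR's quasi-likelihood test, fitted on 15912 genes with Benjamini-Hochberg adjustment over all of them. Of the 38 members that passed the study's filter on low values, 19 rose in the AVF (adjusted p under 0.05) and 0 fell, with 24 higher and 0 lower at an unadjusted p under 0.05. Among all genes tested, 8.63% were higher and 5.13% lower at the adjusted threshold. An unadjusted p under 0.05 was found for 5023 of the 15912, both directions together. The other 19 members did not pass the adjusted threshold, and 1 member, Orc1, was too low to be tested. A rise of at least 2-fold was called in 8 members (Tk1, Pclaf, Rrm2, Pole, Gins2, Chaf1b, Uhrf1 and Cdt1), against 3.37% of all genes. No member fell by DESeq2 or by edgeR's exact test either. The median log2 fold change of the 38 members was 0.52, against -0.01 over all genes tested. Every one of the 38 was above 0, although Prim1, Rfc2, Rfc3 and Dut, all within 0.07 of 0, dropped below 0 in some of the alternative fits. With other size factors, or without ribosomal RNA genes, the 19 called members stayed the same. Without the OUT libraries 16 members rose, all among the 19, and without sample #07 the count was 21.

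**Figure D1:**
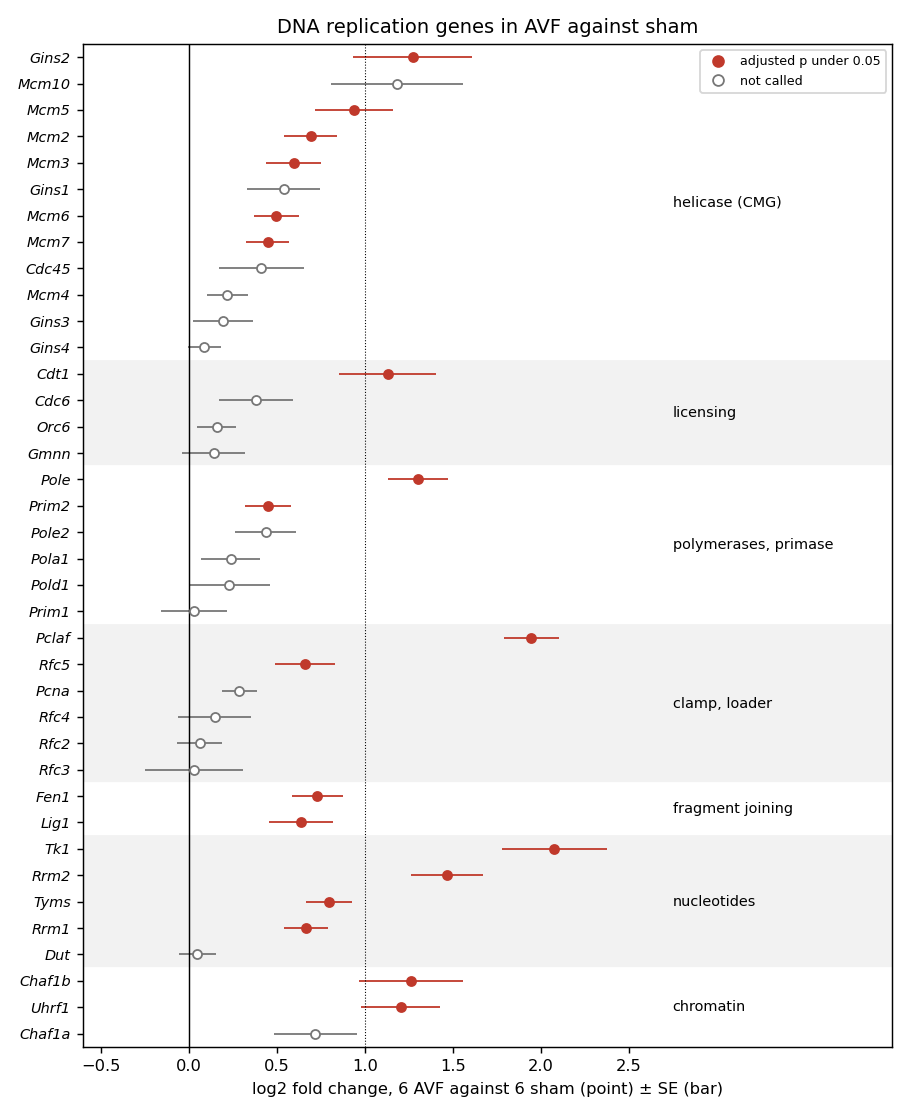
Log2 fold change of the 38 tested members in 6 AVF against 6 sham libraries (x axis, points) with its standard error (bars), grouped by role and sorted within it; filled red points passed the adjusted p of 0.05, open grey points did not, and the dotted line marks 2-fold. Tk1 and Pclaf lie near 2, Pcna and Mcm4 near 0.25, and no point lies below 0.

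The summed level of the 39 members separated the groups. It was 422 normalized CPM in sample #04, 376 in #05, 459 in #06, 363 in #07, 391 in #09 and 507 in #11. In the sham mice it was 300.3 in #16, 307 in #17, 309 in #18, 307 in #19, 245 in #22 and 305 in #23. Sample #11 was highest and #22 lowest, and the lowest AVF library lay above the highest sham library. Taken singly, 10 members had all 6 AVF libraries above all 6 sham libraries (Mcm2, Mcm6, Pole, Pclaf, Fen1, Rrm1, Rrm2, Tyms, Tk1 and Uhrf1), a pattern of 4.55% of all genes tested, and all 10 were called.

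Markers of other cells moved in the same libraries. Summed macrophage markers were 1245 to 1924 normalized CPM in AVF and 613 to 1032 in sham, and 7 of 8 rose. Summed fibroblast markers were 10327 to 16001 in AVF and 5592 to 10286 in sham, and 5 of 8 rose, among them Col1a1 (log2 fold change 1.34). Sums of endothelial markers (1991 to 2562 against 1711 to 2885) and of smooth muscle markers (2504 to 5271 against 2783 to 5009) overlapped. Summed brown fat markers were 55.3 to 277 in AVF and 188 to 1661 in sham, and 4 of 7 tested fell. Of the markers of T cells, B cells, neutrophils, erythroid precursors, white adipocytes, sympathetic neurons and Schwann cells, 0 were called by edgeR's quasi-likelihood test. At an unadjusted p under 0.05 were 8 of 8 sympathetic, 4 of 8 Schwann and 1 of 7 tested B cell markers, and DESeq2 called 7, 3 and 1 of them, the first 2 lists lower in AVF. Of all 15912 genes tested, 5023 had an unadjusted p under 0.05, in either direction. Hepatocyte markers moved most, with 7 of 8 higher and a median log2 fold change of 9.04, and DESeq2 and the exact test also called 7. In OUT against sham 7 of 8 rose, while in nAVF 0 of 8 were called by the quasi-likelihood test and 0 had an unadjusted p under 0.05. The part of these markers in the change of the replication genes was not tested.

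Of the genes of nucleotide supply, 4 of 5 rose. Ribonucleotide reductase makes deoxynucleotides from ribonucleotides, with Rrm1 as its large subunit and Rrm2 as the small subunit of cycling cells. Rrm2 was 14.3 normalized CPM in #04, 12.1 in #05, 15.2 in #06, 12.8 in #07, 17.7 in #09 and 19.6 in #11, and in sham 4.77 in #16, 5.63 in #17, 5.54 in #18, 9.13 in #19, 3.89 in #22 and 4.26 in #23. The groups did not overlap, although sham sample #19 stood above the other shams. Rrm2 rose by a log2 fold change of 1.47 (SE 0.21, adjusted p = 0.00108), and Rrm1 by 0.67 (SE 0.13, adjusted p = 0.00558).
Tk1, the thymidine kinase of S phase cells, had the largest rise of all members. Its level was 2.63 to 6.47 with a median of 3.24 in AVF and 0.550 to 1.25 with a median of 0.789 in sham, a log2 fold change of 2.08 (SE 0.30, adjusted p = 0.00123). Sample #11 was 6.47 and the next AVF library 3.35, so that library stood apart. Tyms, which makes thymidylate, had a narrow range of 7.54 to 9.20 in AVF, against 3.81 to 6.05 in sham, and rose by 0.80 (SE 0.13, adjusted p = 0.00244). Dut, which removes dUTP, was 8.06 ± 0.911 (SD, n = 6) in AVF and 7.80 ± 0.613 (SD, n = 6) in sham, with a log2 fold change of 0.05 (SE 0.11, adjusted p = 0.793).

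**Figure D2:**
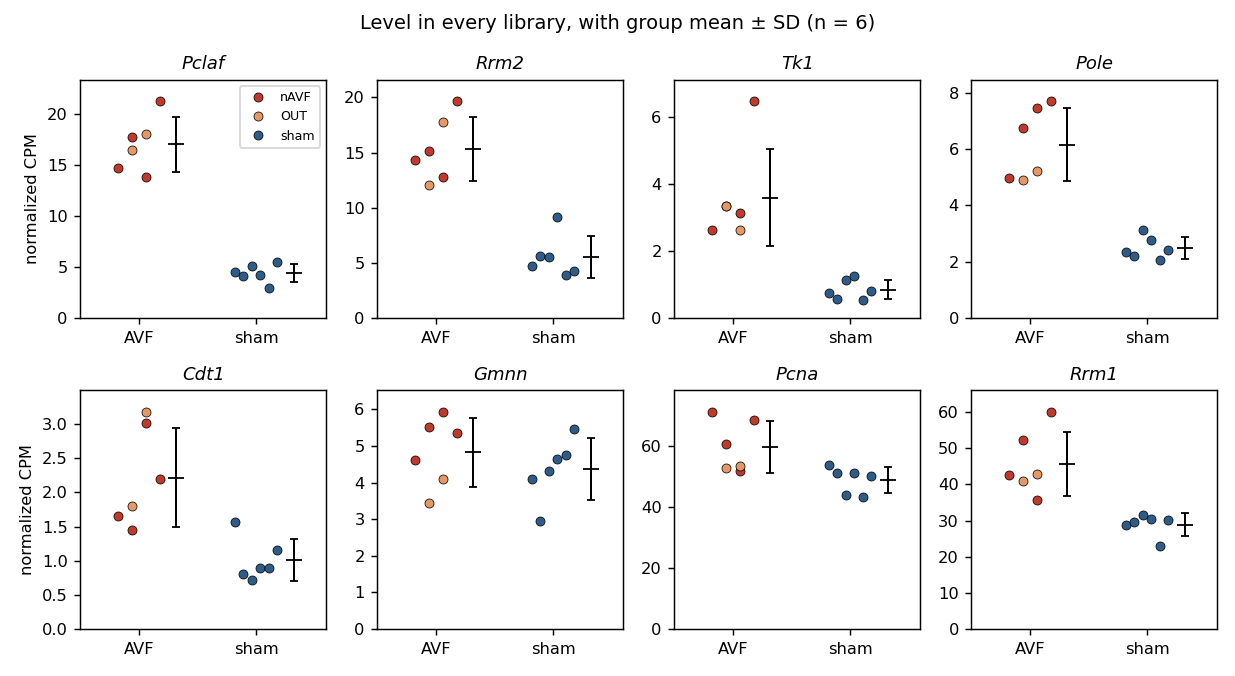
Normalized CPM (y axis, from 0) of 8 members in each library of the AVF and sham groups; points are libraries, coloured as nAVF, OUT or sham, and the dash with bars is the group mean ± SD (n = 6). Pclaf, Rrm2, Tk1, Pole and Rrm1 show no overlap between the groups, while Cdt1, Gmnn and Pcna overlap.

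At the clamp, Pclaf and Pcna, whose proteins bind each other, differed in size of change. Pclaf was 14.7 normalized CPM in #04, 16.5 in #05, 17.8 in #06, 13.8 in #07, 18.1 in #09 and 21.2 in #11, and in sham 4.54 in #16, 4.15 in #17, 5.07 in #18, 4.28 in #19, 2.92 in #22 and 5.52 in #23. Pclaf had the lowest adjusted p value of the members, with a log2 fold change of 1.95 (SE 0.16, adjusted p = 5.53e-05), and the lowest AVF library was well above the highest sham library. Pcna, by far the highest member per length (32.2 normalized CPM per kb in sham), was 71.0 normalized CPM in #04, 52.5 in #05, 60.4 in #06, 51.8 in #07, 53.5 in #09 and 68.4 in #11, and in sham 53.7 in #16, 51.1 in #17, 43.9 in #18, 51.1 in #19, 43.2 in #22 and 50.1 in #23. All 6 AVF libraries of Pcna lay above the sham mean, but 3 lay within the sham range, and its log2 fold change of 0.29 (SE 0.10, adjusted p = 0.07) was not called by the quasi-likelihood test but was by DESeq2 (adjusted p = 0.0367). Within a library, the ratio of Pclaf to Pcna per kb was 0.144 to 0.235 in AVF and 0.0469 to 0.0801 in sham, with no overlap.
Of the loader subunits, Rfc5 rose by 0.66 (SE 0.17, adjusted p = 0.0255), although the exact test did not call it (adjusted p = 0.0974). The other loader subunits measured here were not called, with log2 fold changes of 0.15 for Rfc4 (adjusted p = 0.667), 0.06 for Rfc2 (adjusted p = 0.779) and 0.03 for Rfc3 (adjusted p = 0.955), the smallest of all members. Their groups overlapped, for example 2.15 to 4.93 in AVF and 1.44 to 4.53 in sham for Rfc3. Rfc4 was 3.12 to 6.14 in AVF and 2.71 to 5.64 in sham, and Rfc2 10.7 ± 1.11 in AVF and 10.2 ± 1.81 in sham (SD, n = 6 each). Rfc5 was 4.96 to 8.25 in AVF and 3.13 to 5.41 in sham, and the groups overlapped in sample #04 and #05.

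In the helicase, 6 of 12 genes rose by the quasi-likelihood test, and 5 of these were subunits of the Mcm ring. DESeq2 called 7 of the 12 and the exact test 3, Mcm5 among them. Mcm2 (adjusted p = 0.0541), Mcm3 (0.0719), Mcm6 (0.053) and Mcm7 (0.145) missed the threshold of the exact test. Mcm2 was 6.57 to 9.18 normalized CPM (median 7.53) in AVF and 3.51 to 5.81 (median 4.72) in sham, and rose by 0.69 (SE 0.15, adjusted p = 0.0118). Mcm6 was 24.3 to 36.6 (median 29.7) in AVF and 16.3 to 24.3 (median 22.4) in sham, and rose by 0.50 (SE 0.13, adjusted p = 0.0237). These groups did not overlap, although in Mcm6 the lowest AVF and the highest sham library were nearly equal.
Mcm5 rose by 0.94 (SE 0.22, adjusted p = 0.0185), from a sham median of 4.16 to an AVF median of 7.87. Mcm3 rose by 0.60 (SE 0.16, adjusted p = 0.0266), and its AVF range of 7.97 to 16.5 crossed the sham range of 7.03 to 9.60 only in sample #07. Mcm7 rose by 0.45 (SE 0.12, adjusted p = 0.0315), at 12.3 to 18.8 in AVF and 9.00 to 13.4 in sham. Mcm4 was the exception in the ring, at 18.4 to 27.1 in AVF and 16.5 to 23.3 in sham, with a log2 fold change of 0.22 (SE 0.12, adjusted p = 0.217).
Ring subunits are needed in equal number, but their levels per kb were not equal. In AVF they ran from 1.70 normalized CPM per kb for Mcm5 to 10.2 for Mcm6. The order of the mean levels per kb was Mcm6, Mcm7, Mcm4, Mcm3, Mcm2 and Mcm5. In mean ± SD, Mcm7 overlapped Mcm4, and Mcm3, Mcm2 and Mcm5 overlapped each other.
Of the other helicase genes, Gins2 rose by 1.27 (SE 0.34, adjusted p = 0.0286), with 1.51 to 5.81 normalized CPM in AVF and 0.709 to 1.98 in sham, an overlap made by sample #07. The remaining GINS subunits were not called, at 0.54 for Gins1 (SE 0.21, adjusted p = 0.0972), 0.19 for Gins3 (SE 0.17, adjusted p = 0.474) and 0.09 for Gins4 (SE 0.09, adjusted p = 0.545). Their ranges overlapped, with a normalized CPM of 1.62 to 2.81 in AVF and 1.24 to 2.22 in sham for Gins1, 2.91 to 4.65 in AVF and 2.45 to 3.91 in sham for Gins3, and 14.7 to 17.9 in AVF and 13.2 to 17.2 in sham for Gins4. Gins4 had the highest level per kb of the helicase genes in sham, 10.6, beside 0.374 for Gins2. Cdc45, which joins GINS on the ring, had a log2 fold change of 0.41 (SE 0.24, adjusted p = 0.266) and a normalized CPM of 2.26 to 3.62 in AVF and 1.57 to 4.02 in sham. Mcm10, a starter of the assembled helicase, had a log2 fold change of 1.18 but missed the threshold of the quasi-likelihood test (SE 0.38, adjusted p = 0.0533), although DESeq2 called it (adjusted p = 0.0143) and so did the exact test (adjusted p = 0.0475), at 1.45 to 3.50 in AVF and 0.313 to 1.70 in sham.

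**Figure D3:**
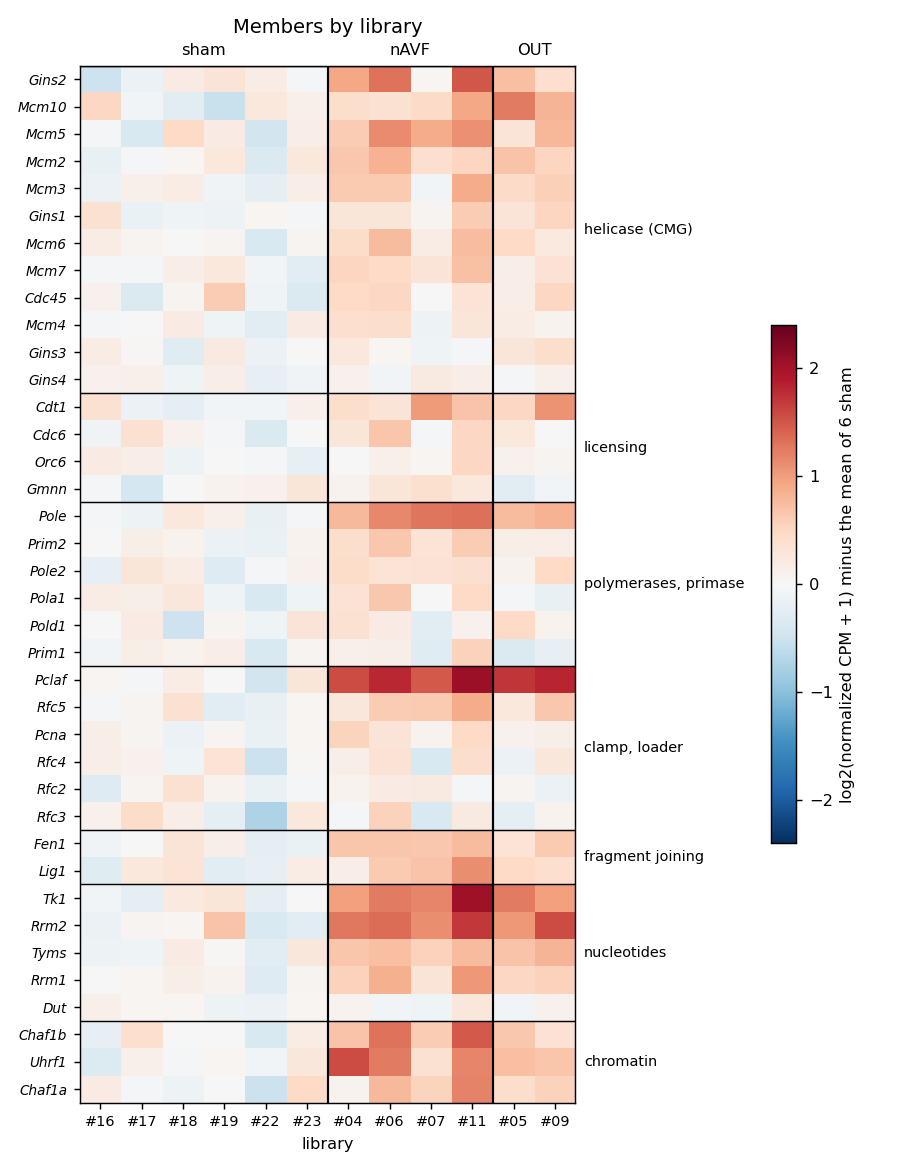
Each member (rows, by role) in each library (columns, sham, nAVF and OUT), as log2(normalized CPM + 1) minus the mean of the 6 sham libraries, red above and blue below it. Pclaf, Rrm2, Tk1 and Pole are red in all 6 AVF libraries, sample #11 was the highest library in 18 members, and #22 the lowest in 23.

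Among the licensing genes, Cdt1 rose and its inhibitor geminin did not pass the test. Cdt1 was 1.66 normalized CPM in #04, 1.80 in #05, 1.45 in #06, 3.02 in #07, 3.18 in #09 and 2.20 in #11, and in sham 1.56 in #16, 0.811 in #17, 0.719 in #18, 0.887 in #19, 0.889 in #22 and 1.16 in #23. Only sham sample #16 reached into the AVF range, and the log2 fold change was 1.13 (SE 0.27, adjusted p = 0.0202). Gmnn was 4.63 in #04, 3.45 in #05, 5.52 in #06, 5.93 in #07, 4.11 in #09 and 5.34 in #11, and in sham 4.11 in #16, 2.96 in #17, 4.31 in #18, 4.64 in #19, 4.74 in #22 and 5.47 in #23. The Gmnn ranges nearly coincided, and its log2 fold change was 0.14 (SE 0.18, adjusted p = 0.63).
Cdc6, which loads the ring with Cdt1, was 2.48 to 4.70 in AVF and 1.82 to 3.67 in sham, and its log2 fold change was 0.38 (SE 0.21, adjusted p = 0.235). Orc6, a subunit of the origin recognition complex, had 0.16 (SE 0.11, adjusted p = 0.353), with 14.7 ± 2.08 normalized CPM in AVF and 13.2 ± 1.51 in sham (SD, n = 6 each). Orc1, the subunit that comes and goes with the cell cycle, lay at 0.108 to 1.49 normalized CPM in AVF and 0.0423 to 0.378 in sham, or 1 to 33 counts, near the floor.

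Of the polymerases and primase, Pole and Prim2 rose. Pole encodes the catalytic subunit of polymerase epsilon on the leading strand. It was 4.91 to 7.68 normalized CPM (median 5.97) in AVF and 2.07 to 3.13 (median 2.39) in sham without overlap, a log2 fold change of 1.30 (SE 0.17, adjusted p = 0.000687). Its partner subunit Pole2 was 2.87 to 4.05 in AVF and 1.93 to 3.43 in sham, a log2 fold change of 0.44 (SE 0.17, adjusted p = 0.104).
Prim2, the large primase subunit, rose by 0.45 (SE 0.13, adjusted p = 0.0393), while Prim1, the catalytic one, was at 0.03 (SE 0.19, adjusted p = 0.929). Pola1, of polymerase alpha, was at 0.24 (SE 0.17, adjusted p = 0.352) and Pold1, of polymerase delta on the lagging strand, at 0.23 (SE 0.23, adjusted p = 0.525). Levels of these 3 uncalled genes overlapped between the groups. Prim1 was 4.72 to 9.79 in AVF and 4.66 to 7.15 in sham, Pola1 12.5 to 22.8 in AVF and 10.8 to 17.2 in sham, and Pold1 1.72 to 3.50 in AVF and 1.31 to 3.05 in sham. Prim2 was 6.52 to 9.68 in AVF and 5.16 to 6.53 in sham, so that the groups met only at their edges, and it rose in 12 of its 24 alternative fits, the fewest of any called member.

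Both genes of fragment joining rose. Fen1, the flap nuclease, was 5.11 to 7.22 normalized CPM in AVF and 3.17 to 5.03 in sham, and rose by 0.73 (SE 0.15, adjusted p = 0.00758). Lig1, the ligase, rose by 0.64 (SE 0.18, adjusted p = 0.0373), with 9.89 in the lowest AVF library and 11.2 in the highest sham library. Lig1 was called in 16 of its 24 alternative fits. It was not called by the exact test (adjusted p = 0.0599), nor by the quasi-likelihood test without the OUT libraries (adjusted p = 0.0521).
In the copying of chromatin, Uhrf1, which brings DNA methylation to new strands, was 4.63 to 11.9 in AVF and 2.46 to 4.26 in sham, and rose by 1.20 (SE 0.23, adjusted p = 0.00536). Chaf1b, a subunit of the chromatin assembly factor that places histones behind the fork, rose by 1.26 (SE 0.29, adjusted p = 0.0173). Chaf1b was 2.19 to 5.95 in AVF and 0.931 to 2.29 in sham, with sample #09 the lowest of the AVF libraries. The large subunit Chaf1a was 4.34 to 10.4 in AVF and 2.50 to 6.00 in sham, and its log2 fold change of 0.72 (SE 0.23, adjusted p = 0.0586) was not called by the quasi-likelihood test but was by DESeq2 (adjusted p = 0.0212).

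Partners in an enzyme were compared within each library, as ratios of levels per kb, which do not depend on the scaling of libraries. Rrm2 to Rrm1 was 0.523 to 0.749 in AVF and 0.256 to 0.543 in sham, and 4 of 6 AVF libraries were above the highest sham library. Pole to Pole2 was 0.265 to 0.431 in AVF and 0.134 to 0.301 in sham, also with 4 of 6 above. Cdt1 to Gmnn was 0.114 to 0.336 in AVF and 0.0725 to 0.165 in sham, again with 4 of 6 above. Chaf1b to Chaf1a overlapped widely, at 1.05 to 2.14 in AVF and 0.767 to 1.79 in sham. These pairs were chosen after their values were seen and are given without a test.

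To place the members among other genes of the same processes, lists of genes of each process were read from the same test. In that test 8.63% of all genes were higher, 3.37% at least 2-fold, and 5.13% were lower. Of 11 further initiation genes 3 rose, Ticrr (log2 fold change 1.29), Dbf4 (1.11) and Topbp1 (0.45), and the lowest were Orc3 and Orc2 (both -0.04), subunits of the complex that stays through the cycle. Of 23 further fork genes 2 rose, Clspn (1.73) and Dna2 (1.01), a share near that of all genes. The lowest fork genes were Pold2 (-0.27) and Rpa3 (-0.20), neither called. Of 10 further nucleotide genes Samhd1 rose (0.42) and Rrm2b fell (-0.40, SE 0.08, adjusted p = 0.00759). Rrm2b is the small reductase subunit of cells outside S phase. The exact test called 0 genes of this list, and DESeq2 called 3 higher and 1 lower. In nAVF against sham neither Rrm2b (adjusted p = 0.0504) nor Samhd1 (adjusted p = 0.0637) passed the quasi-likelihood test. Nme1, next lowest after Rrm2b, was at -0.18 (adjusted p = 0.415).
Of 9 further chromatin genes Hells (0.97) and Nasp (0.40) rose, Asf1b reached 0.89 (adjusted p = 0.0516), and Asf1a was lowest at -0.07, next to Ssrp1 at 0.07. Of 14 E2F and pocket protein genes 4 rose, E2f8 (1.91), E2f7 (0.93), E2f3 (0.34) and Tfdp1 (0.33), and E2f6 (-0.31) and E2f5 (-0.19) were lowest and not called. E2f7 and E2f8 are repressors that are themselves E2F targets.
Of 9 genes of the S phase checkpoint 0 passed edgeR's quasi-likelihood test, 1 had an unadjusted p under 0.05, and 0 were called by DESeq2 or the exact test. Chek1 was highest in that list at 0.58 (adjusted p = 0.102), followed by Wee1 at 0.27, and Atr (-0.18) and Rad9a (-0.08) were lowest. Among relatives of replication genes that serve repair or meiosis, Polq rose (1.80), while Poln (-0.79, adjusted p = 0.189) and Mcm8 (0.05) were lowest. Of 24 mitosis genes all 24 rose at least 2-fold, from Bub1b and Anln (both 1.26) to Kif20a (2.22) and Ccnb1 (2.31), with a median of 1.83 beside 0.52 for the replication members. The mitosis list, like the others, was chosen with earlier results of these data known.

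**Figure D4:**
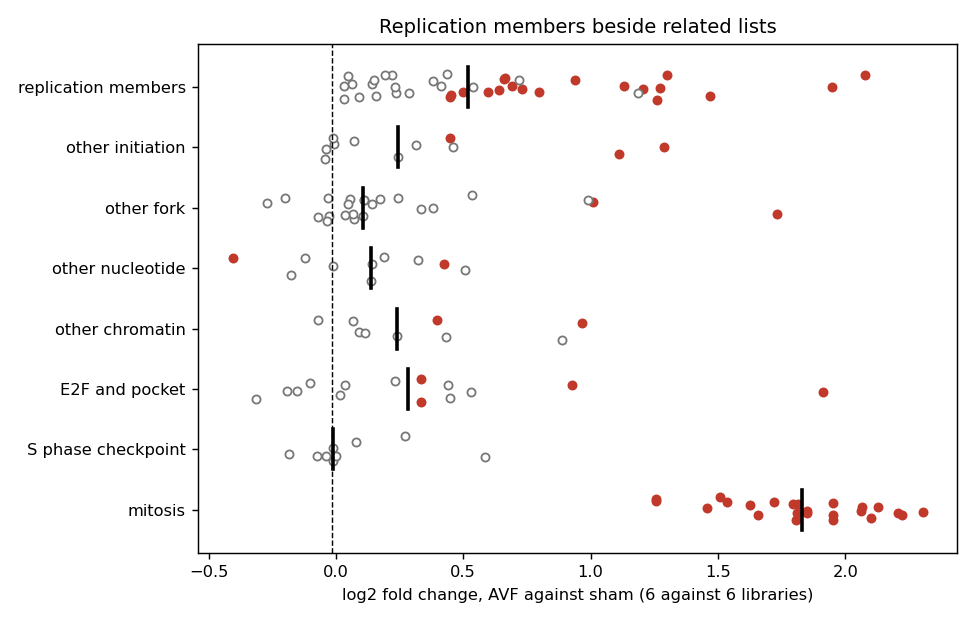
Log2 fold change in AVF against sham (x axis) of the replication members and of 7 related lists (rows); each point is a gene, red where the adjusted p was under 0.05 and open where not, black bars are list medians, and the dashed line is the median of all genes tested. The mitosis list lies wholly above 1, while the replication members spread from 0.03 to 2.08.

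To examine the AVF subgroups, nAVF and OUT were each set against the same 6 sham libraries, so the results share those controls. In nAVF (n = 4), 12 of 39 members rose and 0 fell by edgeR's quasi-likelihood test (0 lower at an unadjusted p under 0.05), against 3.23% of all genes higher and 1.13% lower. The 12 were all among the 19 called in the whole AVF group, and 8 rose at least 2-fold, against 1.53% of all genes. Those same libraries gave 16 higher above, by the same test under the other filter of the study on low values. Pclaf (log2 fold change 1.93, SE 0.19, adjusted p = 0.000364), Pole (1.41, SE 0.19, adjusted p = 0.00167) and Tk1 (2.18, SE 0.34, adjusted p = 0.00377) had the lowest adjusted p values. No member fell by DESeq2 or the exact test, and DESeq2 called 21 higher. The count was 5 without sample #06, 5 without #11 and 7 without sham sample #16, and 16 without #07. The count with at least 2-fold was 5 without #06 or #11.
In OUT (n = 2), 5 of 39 members rose and 0 fell by edgeR's quasi-likelihood test, DESeq2 or the exact test (0 lower at an unadjusted p under 0.05), against 3.48% of all genes higher and 0.451% lower. They were Pclaf (1.97, SE 0.21, adjusted p = 0.000424), Tk1 (1.82, SE 0.37, adjusted p = 0.0225), Rrm2 (1.44, SE 0.29, adjusted p = 0.024), Pole (1.02, SE 0.23, adjusted p = 0.0364) and Rrm1 (0.54, SE 0.13, adjusted p = 0.0462). The first 4 rose at least 2-fold, against 2.84% of all genes. The count was 1 without sample #05, #09, #16 or #23, 2 without #17 and 3 without #18 or #22.
In OUT against nAVF, 7 of 8 hepatocyte markers rose. The summed hepatocyte markers were 4040 and 10321 normalized CPM in OUT, 533 to 2702 in nAVF and 587 to 1485 in sham. In sham nearly all of the sum was Cyp2e1 (582 to 1483 normalized CPM), the 1 marker not called in AVF against sham. Alb and Ahsg reached 1.94 and 2.03 in sham, and 5585 and 649 in AVF. Ttr and Fgb had 0 counts in at least 1 AVF and 1 sham library. The part of the hepatocyte markers in the OUT result was not tested.
Between OUT and nAVF, 0 members were called by edgeR's quasi-likelihood test, 0 by DESeq2 and 0 by the exact test, and 1 (Pola1) had an unadjusted p under 0.05. Of all genes tested, 1.59% were higher and 0.00452% lower in OUT. Of the 39 members, 7 were above 0, with a median log2 fold change of -0.19. Over all genes tested, 10620 of 22124 were above 0, with a median of -0.02. The median of the members was -0.06 without sample #11 and -0.27 without #07. The difference was 0.03 for Pclaf (SE 0.22), -0.74 for Chaf1b (SE 0.42) and 0.69 for Mcm10 (SE 0.41), the last being the largest in the direction of OUT. Gmnn was 3.45 and 4.11 normalized CPM in OUT and 4.63 to 5.93 in nAVF, a difference of -0.50 (SE 0.27, adjusted p = 0.994). With 2 mice against 4, a missed threshold does not show that the subgroups were alike.

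**Figure D5:**
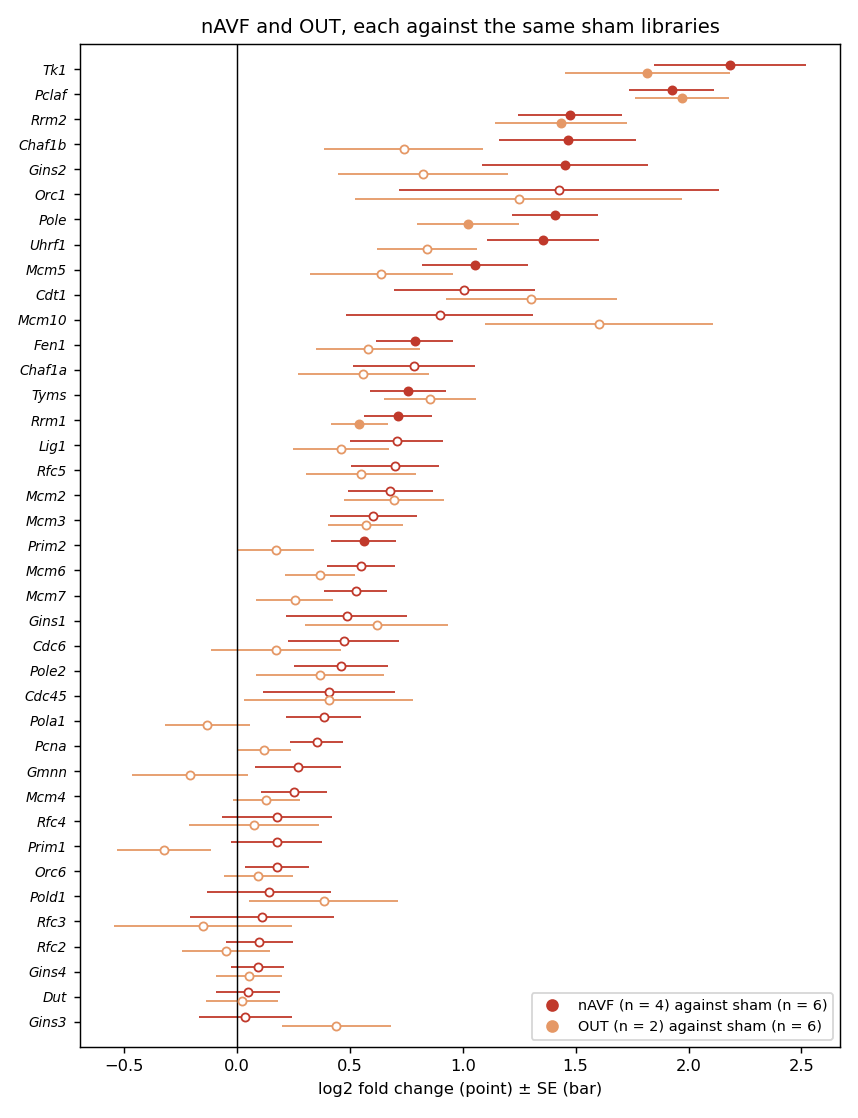
Log2 fold change of each of the 39 members (rows) in nAVF and in OUT, each against the same 6 sham libraries (x axis, points), with standard errors (bars); filled points passed the adjusted p of 0.05. Pclaf, Tk1, Rrm2, Pole and Rrm1 are filled in both, and the bars of OUT are wider for most members.

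The sexes were compared last. The AVF change differed between female and male mice in 0 of 39 members by the interaction term of edgeR's quasi-likelihood test, and in 0 by DESeq2, with 1 (Rfc5) at an unadjusted p under 0.05. Of all 22163 genes tested, 0% were called. Female and male AVF differed in 0 members by either tool and by the exact test, 0 at an unadjusted p under 0.05, and 0.0316% of all genes were called. In Cdt1, the member with the lowest p there, females were higher by 0.76 (SE 0.32, adjusted p = 0.997). Female and male sham also differed in 0 members by the 3 tools, with 1 (Pola1) at an unadjusted p under 0.05, and 0.0818% of all genes were called. With 3 mice a side the intervals were wide, and a missed threshold does not show that the sexes were alike.

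Most members, but not all, also varied together within the groups. Correlations were taken over 12 libraries between the deviation of a member's log2 level from its group mean and the mean deviation of the other members, as a description in libraries that share their scaling. They were highest for Rrm1 (r = 0.98) and Prim1 (0.94), although Prim1 was not called between the groups, and lowest for Cdt1 (-0.30) and Mcm10 (-0.28). The mean deviation of the members was 0.251 in sample #11, -0.215 in sham sample #22 and -0.171 in sample #07, so these libraries weigh most. In level, sample #11 was highest in 18 of 38 members and #22 lowest in 23. The 5 other genes most like the members' mean deviation, of 11420 with at least 5 normalized CPM, were Gm9616 (r = 0.92), Cep57 (0.91), Il33 (0.90), Tpx2 (0.90) and Nrde2 (0.89). High correlations were thus not confined to replication genes. Summed erythroid markers were 14973 normalized CPM in sample #11 and 2536 to 7652 in the other AVF libraries, and their part in its levels was not tested.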

How the data were processed

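Poly(A) RNA of the IVC of 12 mice was sequenced, 1 library per mouse. Reads were trimmed with PRINSEQ and Trimmomatic 0.39 and aligned to GRCm39 with STAR 2.7.7a, and the authors deposited expected counts per gene from RSEM 1.3.3, neither normalized nor filtered. Of the values of a library, 5.72% to 7.75% were not whole. RSEM divides reads that match several similar genes among them. Gene names, coordinates and transcript lengths were taken from GENCODE M39, and promoter windows from RefSeq on GRCm38.p6. The 665 identifiers with no name in that annotation stayed in the tests.

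The expected counts were rounded and normalized by TMM in R 4.3.3 with edgeR 4.0.16. Groups were compared by edgeR's quasi-likelihood test over the whole table with Benjamini-Hochberg adjustment. The filters of the study were used, above 1 CPM in at least 2 of the 12 libraries where AVF met sham, and above 12 counts summed over the 12 libraries elsewhere. A member was called with an adjusted p under 0.05, and the count with a change of at least 2-fold is given too. Every test was first tested on simulated data. DESeq2 1.42.0, edgeR's exact test, RLE size factors, no filter, no ribosomal RNA genes, unrounded values, robust dispersions, sex or the replicate number in the model, and each library left out were the alternatives. Levels per kb divide normalized CPM by the length of the canonical transcript. Tables and plots were made in Python 3.11.15 with pandas 2.3.3 and matplotlib 3.10.9.

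The sample labels gave operation and sex, and the study's text named the nAVF and OUT mice. The members and lists were chosen with earlier results of these data known. All members were to be described, and of each other list the 2 genes with the highest and the 2 with the lowest log2 fold change, besides called genes of lists with few calls. The 5 most alike genes were those with the highest Pearson correlation of deviations from group means with the members' mean. Samples are separate mice, so p values measure the spread between mice. The results of some listed genes are left out of the text.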

Additional observations from a re-analysis of the deposited data

Results flagged for a closer look

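In groups of 4 to 10 libraries, the library farthest from the others was compared with the range of its group by Dixon's ratio. Of 117 groups tested, 8 held such a library, and chance flags about 1 in 20 groups. Sample #11 was the library in 3 of the 8. It was high in Tk1 in the AVF group, at 6.47 normalized CPM against 2.63 to 3.35 in the other AVF libraries. It was high in Orc6 in the AVF group, at 18.9 against 13.2 to 14.5. In the nAVF group it was high in Mcm10, at 2.62 against 1.45 to 1.62. Among the other AVF libraries, #06 was high in Orc1, at 1.49 against 0.108 to 0.548, and #05 was low in Fen1, at 5.11 against 6.52 to 7.22. In the sham group, #19 was high in Rrm2, at 9.13 against 3.89 to 5.63, #16 was high in Gins1, at 2.22 against 1.24 to 1.57, and #22 was low in Rrm1, at 22.9 against 28.6 to 31.7. Tk1, Rrm2, Rrm1 and Fen1 remained called higher in AVF against sham in all 24 alternative fits, those without these libraries included. The cause of these values was not tested.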

How the results depend on the processing

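Members higher in AVF against sham numbered 14 to 21 with each library left out, beside 19 with all, and those with a change of at least 2-fold 7 to 9, beside 8. DESeq2 gave 22, the exact test 13 and the model with the replicate number as a block 16 (16 of them among the 19). Mcm5, Pole, Pclaf, Fen1, Rrm1, Rrm2, Tyms, Tk1, Chaf1b and Uhrf1 were called in all 24 alternative fits. Of the members not called, Rfc3 (-0.12 to 0.16 with each library left out) turned below 0 without AVF male replicate 3 (-0.12), AVF female replicate 3 (-0.01), sham female replicate 1 (-0.03) and sham female replicate 2 (-0.11). Prim1 (-0.12 to 0.12) did so without AVF female replicate 3 (-0.12) and sham female replicate 2 (-0.04), Dut (-0.010 to 0.099) without AVF female replicate 3, and Rfc2 (-0.00062 to 0.14) without sham male replicate 1. For nAVF against sham, with 12 members higher, DESeq2 gave 21, all 12 included, and libraries left out gave 5 to 16, or 5 to 8 for the members with at least 2-fold. For OUT against sham, with 5 higher, DESeq2 gave 11, no filter on low counts 3, and libraries left out 1 to 5. OUT against nAVF and the 3 comparisons of sex gave 0 called members under every alternative run. The causes of these moves were not tested. The same replicate number in AVF and sham of a sex showed a mean correlation of deviations of 0.111, against -0.021 for other numbers, over 0.1 in 3 of 6 pairs, so the numbers were not taken as pairs. With the replicate number as a block, 5 members were higher in nAVF, 5 with at least 2-fold, and 5 in OUT. Depth limited Orc1, at 1 to 33 counts.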
